A study of Mus musculus with 30 samples.

Results

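The immunity-related GTPase (IRG) family was followed through bulk RNA sequencing of 2 mouse tumor cell lines. The members were 10 genes taken by name, out of 49315 gene identifiers counted: Irgm1, Irgm2, Igtp, Iigp1, Tgtp1, Tgtp2, Ifi47, Gm12250 (also called Irgb10), Gm4841 and Gm4951. All 10 had at least 10 reads combined over the 24 libraries and so were among the 21138 genes tested. B16F10, a C57BL/6 melanoma line (B16 below), and 6694c2, a pancreatic ductal adenocarcinoma line also labelled C57BL/6 (C2 below), were kept in culture for 24 h with vehicle, 100 ng/mL IFNγ, 1000 U/mL IFNβ or 225 μg/mL of a STING agonist. Each of the 8 groups had 3 libraries. Nothing in the labels says whether the 3 came from separate cultures, so the spread between these libraries may be technical. P-values rest on that spread together with a spread shared over all genes, which had the larger weight, most of all in B16. Each tumor type is represented by 1 line.

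IRG proteins are large GTPases that interferon-treated mouse cells make against microbes living inside vacuoles. Members with the canonical GTP-binding motif (the GKS class, here Iigp1, Tgtp1, Tgtp2, Ifi47 and Gm12250) load onto the vacuole membrane and help to break it, often beside the guanylate-binding proteins. Irgm1, Irgm2 and Igtp (also called Irgm3) carry a changed motif (the GMS class), sit on the cell's own membranes and hold the GKS proteins inactive there. In the promoters of such genes, GAS elements are known for the response to IFNγ and ISRE elements for that to type I interferon.

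Promoter sequence was found for 7 of the 10 members in the RefSeq table on GRCm38.p6, which covers 250 bases before and 50 after each annotated start. The last 100 bases before the start are shown for the 6 members with a motif match, because the response to each interferon is the subject of what follows. Capitals mark an ISRE core (GAAANNGAAA, either strand) or a GAS match (TTCNNNGAA, its own reverse complement).
Irgm1: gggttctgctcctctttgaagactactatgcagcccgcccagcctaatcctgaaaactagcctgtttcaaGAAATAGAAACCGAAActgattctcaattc
Irgm2: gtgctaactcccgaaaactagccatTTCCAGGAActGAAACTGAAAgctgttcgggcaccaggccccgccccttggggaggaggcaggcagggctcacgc
Igtp: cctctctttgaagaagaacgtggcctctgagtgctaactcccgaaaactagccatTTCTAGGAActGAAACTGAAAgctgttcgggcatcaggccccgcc
Tgtp1: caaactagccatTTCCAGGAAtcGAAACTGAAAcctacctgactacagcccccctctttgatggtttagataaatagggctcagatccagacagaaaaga
Tgtp2: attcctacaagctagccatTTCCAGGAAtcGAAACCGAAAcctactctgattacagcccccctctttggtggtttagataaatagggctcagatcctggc
Gm12250: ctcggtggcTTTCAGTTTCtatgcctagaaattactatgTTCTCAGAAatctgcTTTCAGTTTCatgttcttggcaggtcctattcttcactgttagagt
These windows lie at chr11:48871421-48871520 (minus strand), chr11:58214877-58214976 (plus), chr11:58199456-58199555 (plus), chr11:48992247-48992346 (minus), chr11:49064213-49064312 (minus) and chr11:58183743-58183842 (plus), in that order. RefSeq starts can differ from the 5′ ends of the genes as counted. Those ends are at 58199618 for Irgm2, 58187739 for Gm12250, 48994172 for Tgtp1 and 48871683 for Irgm1, which do not adjoin the windows shown. An ISRE core was present in 6 of 7 member windows, against 3.44% of all 32851 promoter windows of the same length. A GAS match was present in 5 of 7, against 8.30% of all windows. The 2 overlapping ISRE cores of Irgm1 stood without a GAS match, and the Ifi47 window held neither motif. In Igtp, Irgm2, Tgtp1 and Tgtp2 the GAS match was followed after 2 bases by the ISRE core. That arrangement, which was looked for after the windows had been seen, occurred in 5 of 32851 windows, the fifth being Gm12185, a neighbouring IRG locus. Over 60 bases anchored on the GAS match, Igtp and Irgm2 were identical at 58 positions and Tgtp1 and Tgtp2 at 44. These are letter matches, and no factor binding was measured.

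**Figure D1:**
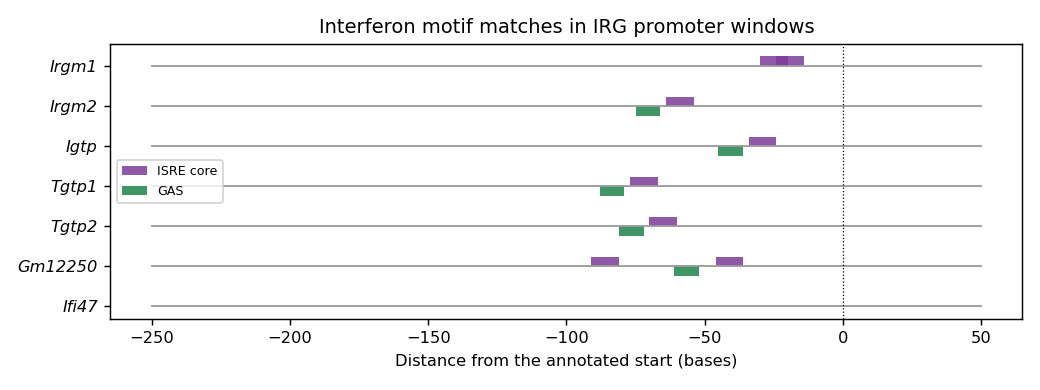
Positions of ISRE core (purple) and GAS (green) matches in the promoter windows of 7 members, in bases from the annotated start (dotted line), with the grey line spanning the 300-base window. Igtp, Irgm2, Tgtp1 and Tgtp2 have the pair side by side, Irgm1 has 2 overlapping ISRE cores, and Ifi47 has no match.

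The members lie in 2 stretches of chromosome 11 and 1 of chromosome 18. On GRCm38, Irgm1, Tgtp1, Tgtp2 and Ifi47 span chr11:48861968-49096974, and Gm12250, Igtp and Irgm2 span chr11:58187739-58222782. Iigp1, Gm4841 and Gm4951 are on chromosome 18. Gm12250 is annotated in GENCODE M21 as a processed pseudogene with 1 exon of 1274 bases. Tgtp1 and Tgtp2 are near copies: 2180 different 100-base words occur in the transcripts of both, of 3102 in Tgtp1 and 2839 in Tgtp2, so the split of reads between them is uncertain. Igtp and Irgm2 share 486 exonic bases on the same strand, and 1976 of the 2473 exonic bases of Ifi47 are also assigned to Olfr56.

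Depth was 15543131 to 32266795 reads on genes per library. Marker sums matched the labelled lines. The summed level of 8 melanocyte markers in C2 libraries was 0.0983% to 0.704% of that in B16 vehicle. The sum of 9 epithelial markers in B16 libraries was 0.0975% to 0.953% of that in C2 vehicle. In C2 the highest of the 9 were Krt8, Krt18 and Krt19, at up to 7845, 5065 and 2735 CPM. Epcam, Cldn4 and Cldn7 reached only 4.82, 0.549 and 0.610 CPM in C2 and 1.94, 0.767 and 0.525 in B16. By the edgeR test given below, 7 of the 9 were called higher in C2 with vehicle, against 28.7% of all genes. Levels below are CPM, reads scaled to a library of 1000000 after TMM normalization over all 24 libraries. In bulk RNA, fewer responding cells and less RNA per cell cannot be told apart.

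IFNγ raised every member in both lines. All 10 were called higher (edgeR quasi-likelihood test, Benjamini-Hochberg adjusted p under 0.05), against 12% of all genes tested in B16 and 7.89% in C2. The median log2 fold change of the members was 8.02 in B16 and 7.06 in C2, and that of all genes was 0.00 in both. Summed over the members, the level went from 139 ± 33.4 CPM (SD, n = 3) with vehicle to 13753 ± 298 with IFNγ in B16, and from 70.1 ± 14.9 to 7530 ± 261 in C2.

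With vehicle, the mean levels of the regulators were the highest in B16, at 12.7 ± 1.15 CPM per kilobase of exonic length for Irgm1, 8.55 ± 2.80 for Igtp and 4.66 ± 0.67 for Irgm2, followed by Iigp1 at 3.39 ± 2.39, which did not differ from Irgm2 beyond its spread. In C2, Iigp1 had the highest mean, 5.31 ± 1.36 CPM per kilobase, ahead of Irgm1 at 4.64 ± 0.47, again within the spread, and Irgm2 was at 0.747 ± 0.359. Irgm1, which acts on lysosomes, mitochondria and the Golgi, was at 67.2, 80.5 and 74.1 CPM in the B16 vehicle libraries and at 2049, 1991 and 2004 with IFNγ. Its log2 fold change was 4.76 ± 0.06 (SE; adjusted p = 5.63e-246), the lowest of the 10 in B16. In C2 the vehicle libraries had 27.5, 29.4 and 24.0 CPM of Irgm1 and the IFNγ libraries 1005, 941 and 914, a log2 fold change of 5.16 ± 0.08 (adjusted p = 4.65e-38), again the lowest. Irgm2 rose from 17.2 ± 2.46 to 816 ± 48.2 CPM in B16 and from 2.76 ± 1.33 to 332 ± 10.6 in C2. Igtp, the regulator found on the endoplasmic reticulum and lipid droplets, rose from 17.3 ± 5.66 to 2454 ± 56.3 CPM in B16 and from 7.82 ± 2.36 to 1253 ± 36.1 in C2. The groups did not overlap for any of the 3, a separation that was not counted over all genes.

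Among the effectors, Tgtp1 had the largest estimated response in B16, from 0.957, 6.82 and 6.02 CPM to 1821, 1815 and 1766 (log2 fold change 8.55 ± 0.09, adjusted p = 6.67e-271). Tgtp2 went from 4.49 ± 3.30 to 1572 ± 42.8 CPM (8.39 ± 0.09), and the order of these 2 genes was not tested. Both encode proteins that load early onto the vacuole. Iigp1, the GTPase best studied on the vacuole of Toxoplasma, reached 2925, 2823 and 2762 CPM in B16 from 2.73, 17.6 and 11.5. In C2, Iigp1 reached 2968, 2911 and 2832 CPM from 19.4, 18.6 and 11.7 (log2 fold change 7.46 ± 0.12, adjusted p = 3.17e-38). That was the largest estimate of the 10 there, close to Igtp (7.34 ± 0.13) and Gm4951 (7.34 ± 0.15), and the order was not tested. Ifi47, Gm12250, Gm4841 and Gm4951 had log2 fold changes of 7.09 to 8.28 in B16 and 6.29 to 7.34 in C2. The plot of levels by library shows all IFNγ libraries above all vehicle libraries for each member, again without a count over all genes.

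**Figure D2:**
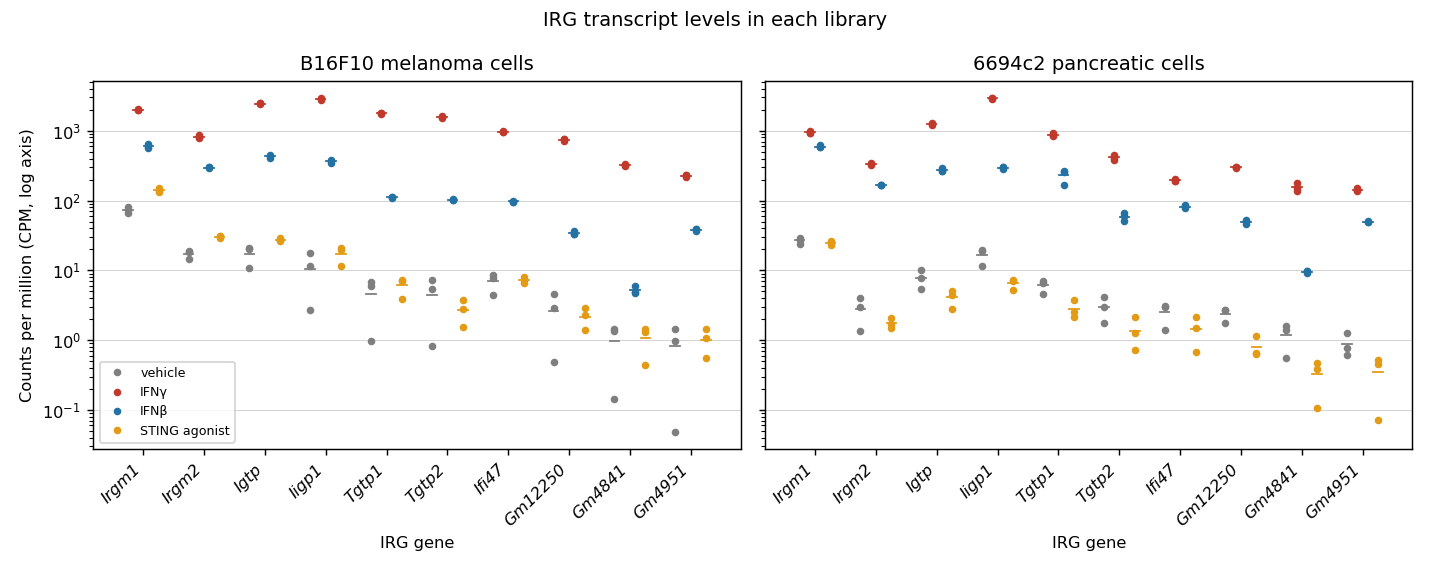
CPM of each member (log axis) in all 24 libraries, B16F10 left and 6694c2 right, coloured by treatment, with a bar at each group mean of 3. IFNγ libraries are highest and IFNβ libraries second for all 10 members in both lines, while vehicle and STING agonist libraries lie together at the bottom.

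Compared per kilobase of exonic length, the members were not made at like levels. With IFNγ, Igtp was highest in B16, at 1214 ± 27.9 CPM per kb (SD, n = 3), ahead of Iigp1 at 909 ± 26.3, and Gm4951 was lowest at 85.8 ± 3.25. In C2, Iigp1 was highest at 930.5 ± 21.9 CPM per kb, ahead of Igtp at 620 ± 17.9. Gm4841 and Gm4951 were lowest there, at 54.2 ± 7.53 and 54.3 ± 2.7, which did not differ beyond their spread.

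IFNβ also raised all 10 members in both lines, against 12.7% of all genes called higher in B16 and 10.4% in C2. Log2 fold changes ran from 2.34 to 5.46 in B16 (median 4.29) and from 3.02 to 5.94 in C2 (median 4.78). Summed levels were 2086 ± 44.5 CPM in B16 and 1809 ± 105 in C2. Gm4841 responded least in both lines, from 0.144, 1.36 and 1.45 CPM with vehicle to 4.88, 4.75 and 6.02 with IFNβ in B16, and from 1.40, 1.62 and 0.549 to 9.29, 9.68 and 9.69 in C2. Its neighbour Gm4951 had the largest response in B16, from 0.0478, 1.44 and 0.978 CPM to 38.5, 36.6 and 39.6 (log2 fold change 5.46 ± 0.13, adjusted p = 7.06e-148). In C2 the largest estimate was that of Irgm2, from 3.97, 2.96 and 1.34 CPM to 166.7, 166.8 and 165.0 (log2 fold change 5.94 ± 0.13, adjusted p = 5.24e-34). Gm4951 was close to it there (5.81 ± 0.16), and the order was not tested. The IFNγ and IFNβ comparisons share their vehicle libraries.

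**Figure D3:**
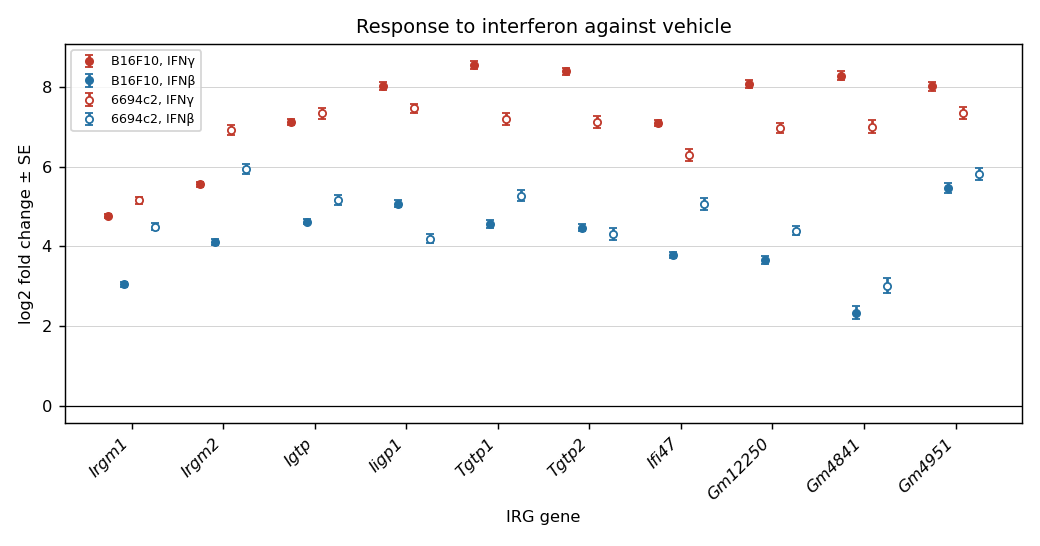
Log2 fold change against vehicle ± SE for each member, with IFNγ in red and IFNβ in blue, B16F10 as filled and 6694c2 as open circles. Every point is above 0, and for each member and line the IFNγ point is above the IFNβ point.

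Set directly against each other, IFNβ gave a lower level than IFNγ for all 10 members in both lines, against 7.85% of all genes called lower in B16 and 6.57% in C2. The gap was smallest for the regulators Irgm1 and Irgm2. Irgm1 had 644, 605 and 573 CPM with IFNβ in B16 and 580.2, 582 and 619 in C2, so that its log2 difference from IFNγ was -1.72 ± 0.05 in B16 and -0.66 ± 0.07 in C2 (adjusted p = 2.89e-114 and 1.81e-10). For Irgm2 the log2 differences were -1.45 ± 0.05 and -0.98 ± 0.09. Gm4841 had the widest gap, -5.94 ± 0.09 in B16 and -3.99 ± 0.11 in C2. With the STING agonist all 10 members were lower than with IFNβ in both lines, against 11% of genes in B16 and 9.53% in C2.

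The gap between the interferons was narrower in C2 than in B16 for most of the family. Tested as a difference between the lines, which uses no vehicle library, it was called for 8 members, all towards a relatively higher IFNβ level in C2, against 4.58% of all genes called in that direction. This contrast was added after the values had been seen. Ifi47 had a difference of 2.07 ± 0.14 on the log2 scale (adjusted p = 1.46e-14): its IFNβ level was 97.1 ± 1.31 CPM in B16 and 82.1 ± 3.81 in C2, while its IFNγ level was 968 ± 26.1 in B16 and 195 ± 6.29 in C2. Differences for Tgtp1, Gm4841 and Gm12250 were 2.07 ± 0.23, 1.94 ± 0.21 and 1.84 ± 0.18, and those for Tgtp2, Irgm1, Gm4951 and Irgm2 were 1.11 ± 0.23, 1.05 ± 0.09, 1.03 ± 0.16 and 0.46 ± 0.11. Igtp (0.32 ± 0.16, 95% interval 0.01 to 0.63 before adjustment, adjusted p = 0.254) and Iigp1 (-0.33 ± 0.25, -0.82 to 0.17, adjusted p = 0.547) were not called. By DESeq2, Tgtp2 and Gm4951 were not called either.

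**Figure D4:**
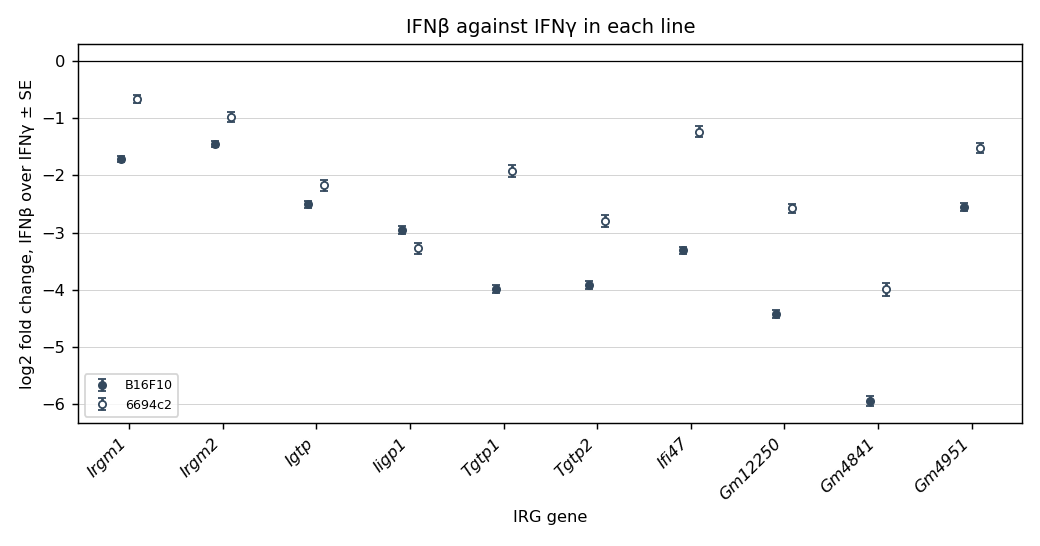
Log2 fold change of IFNβ over IFNγ ± SE for each member in B16F10 (filled) and 6694c2 (open). All points are below 0, from -5.94 to -0.66, and the 6694c2 point is the higher of the pair except for Iigp1.

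With IFNγ, 9 of 10 members were lower in C2 than in B16, against 31.1% of all genes. Ifi47 differed most (log2 difference -2.31 ± 0.10, adjusted p = 1.24e-22) and Gm4951 least among those called (-0.66 ± 0.11, adjusted p = 7.93e-07). Iigp1 was the exception, at 2837 ± 82.1 CPM in B16 and 2904 ± 68.4 in C2, a log2 difference of 0.03 ± 0.18 with a 95% interval of -0.32 to 0.38. With IFNβ the picture was mixed: 4 members were higher in C2, against 29.9% of genes, and 4 lower, against 31.5%. Both counts were near the share of all genes. Among those lower, Ifi47 (-0.24 ± 0.10, adjusted p = 0.0402 by the edgeR test) lost its call under 12 of 31 alternatives. Tgtp1 was higher, at 256, 166 and 267 CPM in C2 against 112, 114 and 110.2 in B16. Tgtp2 was lower, at 59.3, 50.5 and 65.4 against 104, 102.5 and 103. The ratio of Tgtp1 to Tgtp2 CPM was 1.09 ± 0.02 in B16 and 3.90 ± 0.53 in C2 with IFNβ, and 1.15 ± 0.02 and 2.13 ± 0.05 with IFNγ. With the reads of these near copies summed, Tgtp1 and Tgtp2 together were not called higher in C2.

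With vehicle, the 3 regulators and Ifi47 were lower in C2 than in B16, 4 of 10 against 29.3% of all genes. Irgm2 differed most, at 14.4, 18 and 19.1 CPM in B16 and 3.97, 2.96 and 1.34 in C2 (log2 difference -2.63 ± 0.15, adjusted p = 2.79e-19). Iigp1 was called higher in C2, 1 of 10 against 28.7% of genes, with 0.62 ± 0.25 (adjusted p = 0.0302) and overlapping libraries; the call was lost under 12 of 31 alternatives.

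The first B16 vehicle library stood apart in these genes. Its median member was at 0.0804% of the B16 IFNγ level, against 0.628% and 0.439% in the other vehicle libraries, while Irgm1 was at 3.33% against 4.0% and 3.68%. It held 1 read of Gm4951 and 3 of Gm4841. The regulator Igtp was also low there, at 0.439% against 0.829% and 0.846%. Fold changes against B16 vehicle therefore rest on uneven libraries for the effectors and for Igtp. The B16 fit also gave errors that came mostly from a spread shared over all genes (400.0 prior against 8 residual degrees of freedom), which is narrower than the spread of these libraries.

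The size of the IFNγ response differed between the lines for 7 members. Irgm1 and Irgm2 responded more in C2, by 0.38 ± 0.10 and 1.34 ± 0.18 on the log2 scale (adjusted p = 0.0107 and 4.14e-07), 2 of 10 against 4.52% of all genes. Tgtp1, Tgtp2, Gm4841, Gm12250 and Ifi47 responded less, by -1.39 ± 0.33, -1.30 ± 0.39, -1.29 ± 0.42, -1.13 ± 0.34 and -0.82 ± 0.25, 5 of 10 against 4.95%. None of these 5 calls was made by DESeq2 or by the robust quasi-likelihood fit, and 1 of 10 was called lower without the first B16 vehicle library or without the first or second C2 vehicle library. For IFNβ, Irgm1, Irgm2 and Ifi47 responded more in C2, by 1.42 ± 0.10, 1.80 ± 0.18 and 1.24 ± 0.24, 3 of 10 against 6.16%. Iigp1 responded less (-0.91 ± 0.31, adjusted p = 0.044), 1 of 10 against 5.9%, a call lost under 18 of 31 alternatives. Without the first B16 vehicle library, 7 members were called more responsive to IFNβ in C2.

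The STING agonist moved the family little, and in different directions in the 2 lines. In B16 the 3 regulators rose. Irgm1 went from 67.2, 80.5 and 74.1 CPM to 151, 133 and 137 (log2 fold change 0.92 ± 0.06, adjusted p = 7.42e-45). Irgm2 went from 14.4, 18 and 19.1 to 30.6, 29.2 and 31.4 (0.81 ± 0.07, adjusted p = 1.69e-23). Igtp went from 10.8, 20.3 and 20.8 to 26.5, 27 and 29.0 (0.65 ± 0.07, adjusted p = 6.09e-15). No treated library of these 3 overlapped a vehicle library, but such separation was not counted over all genes. Igtp was not called by the robust fit.

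Iigp1 was also called higher in B16 (0.63 ± 0.10, adjusted p = 1.44e-07), giving 4 of 10 against 1.93% of all genes, and Tgtp2 was called lower (-0.86 ± 0.15, adjusted p = 7.07e-06), 1 of 10 against 1.53%. For both genes the groups overlapped: Iigp1 had 20.8, 11.5 and 19.4 CPM with the agonist against 2.73, 17.6 and 11.5, and Tgtp2 had 2.75, 1.52 and 3.71 against 0.813, 7.18 and 5.48. Neither was called with all 24 libraries in one fit, where the SEs were 0.24 and 0.34, nor by DESeq2. Without the first vehicle library Irgm1, Irgm2 and Igtp stayed called, at 0.85, 0.70 and 0.41, Iigp1 was not called (0.21, adjusted p = 0.24), and Tgtp2 and Gm12250 were called lower (-1.30 and -0.81). The other 5 members were not called with all libraries, with log2 fold changes of -0.37 to 0.30.

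In C2 no member was called higher with the agonist, and 6 were called lower, against 0.156% of all genes. Iigp1 fell from 19.4, 18.6 and 11.7 CPM to 7.25, 5.15 and 7.15 (log2 fold change -1.35 ± 0.12, adjusted p = 4.74e-10). Gm12250 fell from 2.74, 2.68 and 1.77 to 1.14, 0.649 and 0.634 (-1.58 ± 0.22, adjusted p = 1.24e-05). Both calls held under all 21 alternatives. Igtp (-0.94 ± 0.15), Tgtp1 (-1.13 ± 0.19), Tgtp2 (-1.15 ± 0.25) and Gm4841 (-1.89 ± 0.37) were also called, on 3 to 174 reads a library, and none of these 4 was called by the robust fit. Irgm1 was at 27.5, 29.4 and 24.0 CPM with vehicle and 26, 23 and 25.3 with the agonist (-0.12 ± 0.08, adjusted p = 0.748).

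The difference between the lines was tested directly, and the response to the agonist was lower in C2 than in B16 for 4 members, against 1.56% of all genes: Irgm1 by -1.05 ± 0.11, Irgm2 by -1.5 ± 0.24, Igtp by -1.60 ± 0.24 and Iigp1 by -2.0 ± 0.36 (adjusted p = 7.04e-09, 4.63e-05, 2.09e-05 and 0.000333). The Iigp1 call was lost under the robust fit (adjusted p = 0.0642).

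Markers of the other line moved beside these small changes. In C2 the melanocyte marker sum was 0.454% to 0.470% of the B16 vehicle level in vehicle libraries and 0.0983% to 0.118% with the agonist, and the median member was at 0.430% to 0.913% and 0.219% to 0.413% of the C2 IFNγ level. In B16 the epithelial marker sum was 0.0975% to 0.139% of the C2 vehicle level in vehicle libraries and 0.721% to 0.953% with the agonist. A share of 0.953% of the C2 IFNγ level would be 9.08 CPM of Irgm1, 3.17 of Irgm2, 11.9 of Igtp and 27.7 of Iigp1, where the mean rises with the agonist were 66.5, 13.2, 10.2 and 6.64 CPM. That share is the one in the highest agonist library, with the vehicle share not taken off, while the rises are differences of group means. In the other direction, a share of 0.470% of the B16 IFNγ level would be 13.3 CPM of Iigp1, 11.5 of Igtp, 8.47 of Tgtp1, 7.39 of Tgtp2, 3.48 of Gm12250 and 1.52 of Gm4841, where the mean differences between C2 vehicle and agonist libraries were 10.1, 3.72, 3.26, 1.62, 1.59 and 0.866 CPM. These 6 are all the members called lower in C2. The 0.470% was the share in the highest C2 vehicle library, and the agonist libraries kept 0.0983% to 0.118%. The amounts are therefore not like quantities to the differences between groups. For Irgm2 the amount was 3.84 CPM, and the C2 vehicle mean was 2.76. The part of these marker shares in the results was not tested.

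**Figure D5:**
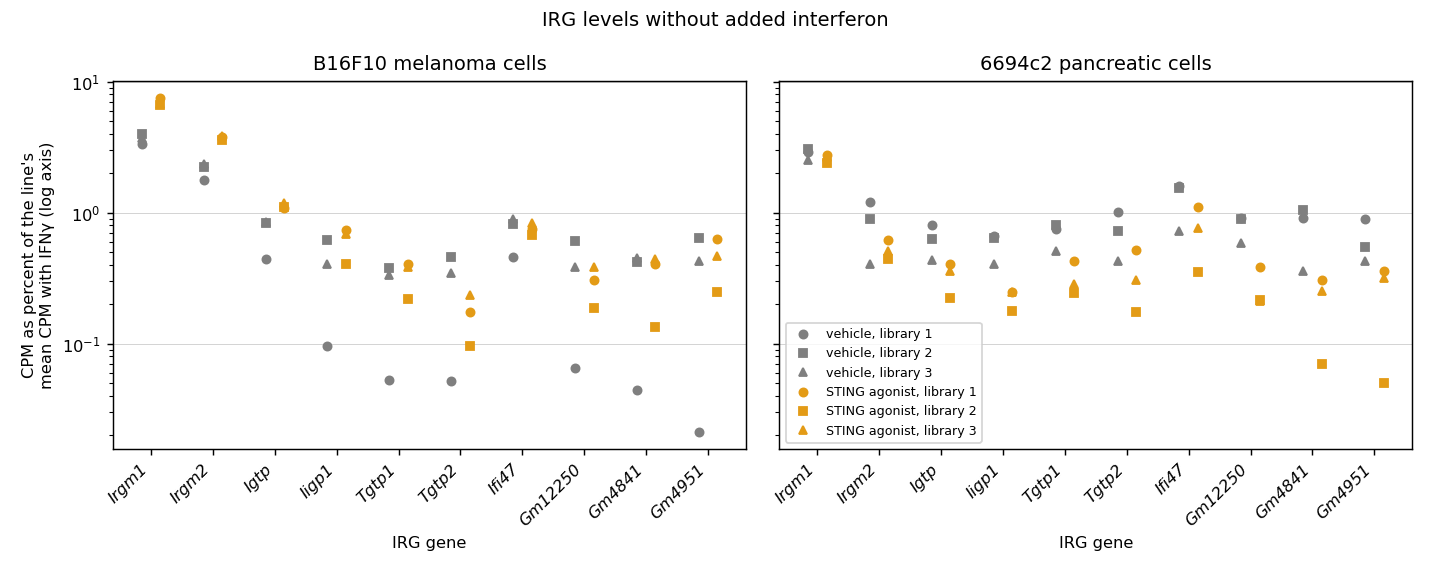
CPM of each member in vehicle (grey) and STING agonist (orange) libraries as a percent of its mean CPM with IFNγ in the same line (log axis), with 1 marker shape per library of a group. In B16F10 the regulators Irgm1 and Irgm2 lie highest and rise with the agonist, and the first vehicle library is lowest for the effectors. In 6694c2 most agonist libraries lie below the vehicle libraries.

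Other IRG loci also responded to interferon. Of 8 that were tested, 6 rose with IFNγ in B16 and 5 in C2, against 12% and 7.89% of all genes. Gm12185, which shares 521 exonic bases with Tgtp1, had log2 fold changes of 8.70 and 7.03, and F830016B08Rik 8.65 and 6.69. The paired loci 9930111J21Rik1 and 9930111J21Rik2 had 7.74 and 7.07 in B16 and 1.04 and 1.09 in C2. Their vehicle means were 0.013 and 0.066 CPM in B16, on at most 1 and 3 reads a library, and 1.54 and 6.67 in C2. With IFNγ the means of these loci were 4.18 and 10.1 CPM in B16 and 3.27 and 14.2 in C2. Gm12187 was called in B16 (5.39), on 0 reads with vehicle and 3 to 7 a library with IFNγ. It was not called in C2, where both groups had 0 reads. Irgc1 was not called in either line, and Irgq, a divergent relative, was not called with IFNγ either (0.11 in both lines). Gm5431 was the locus with the smallest p for IFNβ in C2, at 7.91 against 4.49 for IFNγ. With IFNβ set against IFNγ, 5 of these 8 loci were called lower and 0 higher in B16. In C2, 3 were called lower and 3 higher, unlike the 10 members.

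The guanylate-binding proteins, which work with the IRGs at the vacuole, had a like profile. Of 11, 10 rose with IFNγ in B16 and 11 in C2, against 12% and 7.89% of all genes. With IFNβ 8 and 7 rose, against 12.7% and 10.4%. The same shares of all genes apply to the lists below. With the agonist 3 rose in B16 (Gbp3 by 1.26 and Gbp2 by 1.12 had the smallest p), against 1.93% of all genes. In C2 4 fell (Gbp2 by -1.41 and Gbp3 by -1.12), against 0.156%. The autophagy conjugation genes, whose products are needed to place GKS proteins correctly, moved little. Of 11, 3 rose with IFNγ in B16 and 1 in C2, none over 2-fold. The C2 count was near the 7.89% of all genes. Of 7 ubiquitin and adaptor genes, 5 rose with IFNγ in B16 and 4 in C2, led by Rnf213 (3.04 and 2.84) and Trim21 (2.87 and 4.34). Of 15 interferon signalling genes, 11 rose with IFNγ in B16 and 10 in C2, and 10 rose with IFNβ in each. Irf1, a transcription factor of the IFNγ response, rose by 5.69 and 4.70 with IFNγ. Usp18, a brake on type I interferon receptors, rose by 4.12 and 8.32 with IFNβ. With the agonist 5 of these 15 rose in B16 and 0 were called in C2.

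Over the 8 group means, the 5 genes outside the family whose log2 level was most like the members' mean profile were Tap2 (Pearson's r = 0.998), Olfr56 (0.997), Gbp6 (0.991), Il18bp (0.991) and Cd274 (0.986). These points share libraries and scaling, and Olfr56 overlaps Ifi47 as given above. Between members r ran from 0.857 to 0.995.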

How the data were processed

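The study's bulk RNA was sequenced as paired ends. Per the study's methods, adaptors were trimmed with cutadapt, reads aligned with STAR and counted per gene with Rsubread; the authors deposited raw counts per gene with a gene length, 1 library per file. The labels list mm10 for the series. Strandedness and the treatment of reads mapping to several genes are not given in the sources used here. The 6 single-cell samples were not analysed here.

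Counts were analysed with edgeR 4.0.16 and limma 3.58.1 under R 4.3.3. A gene was kept where its reads, summed over all 24 libraries, reached 10, and TMM factors were used. Treatments were compared within each line over its 12 libraries, and lines over all 24, with the quasi-likelihood test and Benjamini-Hochberg adjustment over all 21138 genes, at an adjusted p under 0.05. The study's own tool, DESeq2 (1.42.0), was an alternative. SEs came from the fold change and F statistic. Intervals of 95% are the estimate with 1.96 SEs on each side. CPM in the text used all 24 libraries. Depth, 15543131 to 32266795 reads, limits the low groups, where some members had under 10 reads. Scripts were tested on simulated data. Symbols were found for 48970 of 49315 identifiers, and coordinates are on GRCm38, where 91.4% of the identifiers found in GENCODE M21 have the same ends. Motifs were searched in RefSeq promoter windows (GRCm38.p6), with member windows limited to those outside chromosome 18. Named genes were the 10 members, other IRG loci, at most the 2 genes of smallest p for each further list and comparison, and the 5 most alike genes, among those whose highest group mean was at least 10 CPM. Members and lists were chosen with earlier results of these data known.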

Additional observations from a re-analysis of the deposited data

Results flagged for a closer look

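A treatment effect that differed between the lines by a direct test drew attention to the following values, each given as the C2 effect minus the B16 effect on the log2 scale. For IFNγ these were 0.38 (Irgm1), 1.34 (Irgm2), -1.39 (Tgtp1), -1.30 (Tgtp2), -0.82 (Ifi47), -1.13 (Gm12250) and -1.29 (Gm4841). For IFNβ they were 1.42 (Irgm1), 1.80 (Irgm2), -0.91 (Iigp1) and 1.24 (Ifi47). For the STING agonist they were -1.05 (Irgm1), -1.5 (Irgm2), -1.60 (Igtp) and -2.0 (Iigp1). For IFNβ against IFNγ they were 1.05 (Irgm1), 0.46 (Irgm2), 2.07 (Tgtp1), 1.11 (Tgtp2), 2.07 (Ifi47), 1.84 (Gm12250), 1.94 (Gm4841) and 1.03 (Gm4951). The first B16 vehicle library, low for the effectors and Igtp, enters the IFNγ, IFNβ and agonist values and not the last set. Its part in them was not tested beyond leaving it out.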

How the results depend on the processing

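All 10 members kept their calls with IFNγ and with IFNβ against vehicle, and with IFNβ below IFNγ and the agonist below IFNβ, in both lines under every alternative run (RLE scaling, 2 other filters, a replicate block, a robust fit, all 24 libraries or only the 6 compared, Tgtp1 and Tgtp2 summed, DESeq2, and each library left out); so did the 9 members lower in C2 with IFNγ, except Gm4951 by DESeq2. The smaller effects did not; their causes were not tested.

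With the agonist in B16, 2 of 10 members were called higher under the robust fit, where 4 had been, and 0 were called lower under filterByExpr, the robust fit, all 24 libraries in one fit, Tgtp1 and Tgtp2 summed, or DESeq2, where 1 had been. Leaving out 1 library gave 0 to 2 called lower, 0 without the second vehicle library and 2 without the first or the third agonist library. In C2, 3 of 10 were called lower under filterByExpr and with all 24 libraries in one fit, and 2 under the robust fit, where 6 had been. Over all genes, 16 to 71 were called higher with the agonist in C2 with 1 library left out where that moved the count, against 43.

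For the IFNγ response in C2 less that in B16, 0 members were called lower under the robust fit and DESeq2. With 1 library left out this count ran from 1 to 6 (1 without the first B16 vehicle library or the first or second C2 vehicle library, 2 without the first B16 IFNγ library, 3 without the second or the third), and that called higher from 1 (without the third C2 vehicle library) to 2. For the IFNβ response, 6 were called higher with no filter on low counts, and 0 lower under filterByExpr, the robust fit and DESeq2. With 1 library left out, 3 to 7 were called higher, 7 without the first B16 vehicle library, and 0 to 1 lower. For the agonist response, 9 were called lower with no filter, and Iigp1 lost its call under the robust fit (adjusted p = 0.0642). For IFNβ against IFNγ, 1 was called lower with no filter, and 8 stayed called higher with any 1 library left out. With vehicle, 2 members were called higher in C2 with no filter, 0 under the robust fit and DESeq2, and 0 to 1 with 1 library left out. With IFNβ, DESeq2 called 1 member higher and 2 lower in C2, and 3 to 5 were called lower with 1 library left out.

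Directions turned for values that had not been called. In B16 with the agonist these were Tgtp1 with Tgtp2 summed (-0.14) and Gm4841 in the 6 libraries compared (0.029) and by DESeq2 (0.088); in the level with vehicle it was Tgtp1 with Tgtp2 summed (-0.037). With 1 library left out, log2 values ran for the agonist in B16 from -0.13 to 0.67 (Tgtp1), -0.19 to 0.21 (Ifi47), -0.81 to 0.25 (Gm12250), -0.49 to 0.40 (Gm4841) and -0.32 to 0.79 (Gm4951). Between the lines they ran from -0.014 to 0.48 for Igtp with IFNγ, from -0.63 to 0.31 for Tgtp2 and -0.26 to 0.86 for Gm4951 with IFNβ, and from -0.78 to 0.15 for Tgtp2 with the agonist. For the level in C2 less that in B16 they ran with vehicle from -0.13 to 0.68 (Tgtp1), -0.67 to 0.40 (Gm12250), -0.28 to 0.55 (Gm4841) and -0.49 to 0.63 (Gm4951), and with IFNβ from -0.076 to 0.013 (Irgm1).

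Replicate numbers did not clearly pair the libraries. Same-numbered libraries had correlations of their deviations from -0.289 to 0.292 in B16 (median 0.109) and -0.504 to 0.424 in C2 (median 0.041). For differently numbered libraries the medians were -0.047 and -0.023. In B16, 10 of 18 same-numbered pairs were over 0.1, against 8 of 36 others, and in C2 8 of 18 against 14 of 36. Of 24 libraries, 8 correlated best with their own number. With a replicate block, 32 of 34 counts of members were equal to those without it. The exceptions were 8 members called lower with the agonist in C2 and 5 with a lower agonist response in C2.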
